A study of Homo sapiens with 2 samples.

Results

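IL1B, PTGS2, TNF and CSF1 are 4 of the 373 genes that a breast cancer panel listed in SUM159, a line of human breast carcinoma cells negative for the 3 clinical receptors. They were taken by name as mediators of inflammation and not by a rule on their values, but with earlier results of these data known. All 4 were listed in each of the 6 populations sequenced. Single cells had been profiled with the BD Rhapsody Onco-BC targeted panel, in which chosen transcripts are amplified and counted as molecules (unique molecular identifiers, UMIs). Attached cells and spheroids were loaded on a cartridge each, and every cartridge pooled 3 populations marked by sample tags, namely treatment-naïve cells and cells resistant to either paclitaxel or doxorubicin. None of the 6 populations was replicated.

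All populations came from the same line, labelled wild type, and the resistant cells had been selected by long-term exposure to rising doses of paclitaxel, which stabilises microtubules, or doxorubicin, an anthracycline that damages DNA. For doxorubicin the study's methods describe short exposures, each followed by recovery without drug, and the culture condition at harvest is not stated there. The spheroid populations are described as drug-treated in the sample labels but as resistant in the design text, and the latter word is used here. Spheroids had been grown in Matrigel, and the study's methods give a higher serum share for their medium than the labels give for SUM159 culture. Culture, serum, cartridge and depth therefore cannot be told apart in any comparison of spheroids with attached cells. Which deposited file held which population was taken from the file's name.

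Attached cells numbered 5305 when treatment-naïve, 5896 when resistant to paclitaxel and 7032 when resistant to doxorubicin, and spheroid cells numbered 4362, 3751 and 3776 in the same order. Median depth was 3653 to 3814 UMIs per attached cell and 1538.5 to 2340 per spheroid cell. At least 1000 UMIs were reached by all but 1 of the attached cells but by only 56.0%, 57.7% and 67.7% of spheroid cells. No cell barcode was shared within a cartridge, and 264 occurred on both. The 7 carcinoma markers, led by vimentin, were present everywhere at a summed 70745 to 168473 CPM (UMIs per 1000000 panel UMIs), the estrogen receptor gene ESR1 was at 0.619 to 5.23 CPM and the HER2 gene ERBB2 at 517 to 1194 CPM. Of 12 myeloid markers, 6 were in the files, summing to 100.1 to 718 CPM. Nearly all of this was CD14, while the other 5 stayed at or below 15.4 CPM for FCGR3A, 13.7 for ITGAX, 7.47 for CD86, 1.68 for LYZ and 0.256 for CD163. Lymphocyte markers summed to 7.70 to 70.6 CPM for T and NK cells and 4.92 to 11.1 CPM for B cells, and fibroblast and endothelial markers to at most 25.7 CPM.

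IL1B encodes interleukin-1 beta and TNF encodes tumor necrosis factor, cytokines best known from macrophages, which bind receptors on neighbouring cells and switch on NF-kappa-B and AP-1 target genes. PTGS2 encodes cyclooxygenase-2, the inducible enzyme that starts the conversion of arachidonic acid to prostaglandins and a classic target of both cytokines. CSF1 encodes the growth factor of monocytes and macrophages, by which carcinoma cells can recruit and sustain these cells.

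The genes lie at chr2:112829751-112836779 (IL1B, minus strand), chr1:186671791-186680423 (PTGS2, minus strand), chr6:31575565-31578336 (TNF, plus strand) and chr1:109910506-109930992 (CSF1) on GRCh38.p14, the RefSeq assembly of the same build as the files. The RefSeq promoter table matched 3 of the 4 genes, and their 250 bases before the start site are shown because these genes differed in how they varied over the 6 populations. Capitals mark matches to 6 short motifs searched on both strands, whose letters are given after the sequences.
IL1B, chr2:112836780-112837029, minus strand: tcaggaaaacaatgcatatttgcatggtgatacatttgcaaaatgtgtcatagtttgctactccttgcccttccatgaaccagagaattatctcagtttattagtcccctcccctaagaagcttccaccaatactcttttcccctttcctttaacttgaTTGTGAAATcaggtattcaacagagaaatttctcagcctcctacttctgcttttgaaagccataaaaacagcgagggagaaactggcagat
PTGS2, chr1:186680424-186680673, minus strand: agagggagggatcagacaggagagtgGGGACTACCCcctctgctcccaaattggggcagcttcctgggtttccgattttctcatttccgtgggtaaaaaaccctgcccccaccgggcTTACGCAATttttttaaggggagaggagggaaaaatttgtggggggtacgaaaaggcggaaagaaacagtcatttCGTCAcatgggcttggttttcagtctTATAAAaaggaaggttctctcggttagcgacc
TNF, chr6:31575315-31575564, plus strand: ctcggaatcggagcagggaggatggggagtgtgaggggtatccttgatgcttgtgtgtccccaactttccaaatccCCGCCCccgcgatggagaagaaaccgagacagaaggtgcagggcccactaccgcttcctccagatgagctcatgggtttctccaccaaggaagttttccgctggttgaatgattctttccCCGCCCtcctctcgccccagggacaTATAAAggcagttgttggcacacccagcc

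The PTGS2 window held 4 matches, which were kappa-B (ending 215 bases before the start), C/EBP (125), a reversed cyclic AMP response motif (54) and a TATA box (27). The IL1B window held a C/EBP match alone, 83 bases before the start. In the TNF window a pair of reversed SP1 matches (169 and 49) stood with a TATA box (24). No matches overlapped, and no AP-1 match was found. Among the 35116 promoter windows of this table, 22.6% held the kappa-B motif, searched as 3 guanines and an adenine followed by any 4 bases and a pair of cytosines. The cyclic AMP response motif, searched as TGACG, was held by 21.2% of windows. For C/EBP, searched as TTNNGNAAT, the share was 9.85%. AP-1, searched as TGANTCA, was present in 6.57% of them. The TATA box letters TATAAA occurred in 10.7% of windows. SP1, with the letters GGGCGG, was the most common motif at 42.6% of windows. A match is a description of letters, since neither binding nor chromatin was measured.

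In the attached cultures, IL1B reached 24049 CPM in treatment-naïve cells (95% Poisson interval 23984 to 24115), 863 CPM in paclitaxel-resistant cells (851 to 875) and 2906 CPM in doxorubicin-resistant cells (2887 to 2926). In the spheroids it reached 6348 CPM in treatment-naïve cells (6302 to 6395), 1560 CPM in paclitaxel-resistant cells (1534 to 1587) and 2896 CPM in doxorubicin-resistant cells (2863 to 2928). Treatment-naïve cells were therefore the highest in either culture and paclitaxel-resistant cells the lowest, and only the attached and spheroid doxorubicin-resistant cells were within each other's intervals. These intervals, and all others given, cover counting error only and not the spread between cultures. Those for CPM and for ratios of CPM treat UMIs as independent, so they do not cover the sampling of cells either.

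PTGS2 was ordered differently. Its level was 11798 CPM in treatment-naïve attached cells (11752 to 11844), 297 CPM in paclitaxel-resistant ones (290.0 to 304) and 418 CPM in doxorubicin-resistant ones (410.2 to 425). In spheroids it was 15763 CPM (15690.2 to 15837), 1685 CPM (1658 to 1713) and 1564 CPM (1541 to 1588) in the same order. Both treatment-naïve populations stood far above every resistant one, the spheroid population was the higher of the pair, and no neighbouring intervals overlapped. The order of the resistant spheroids was not firm, since the ratio of doxorubicin- to paclitaxel-resistant was 0.928 here and 1.16 without scaling.

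TNF was scarce. Attached cultures gave 55 TNF UMIs in cells not exposed to a drug, 14 under paclitaxel resistance and 248 under doxorubicin resistance, or 2.57 CPM (1.93 to 3.34), 0.598 CPM (0.327 to 1.00) and 8.42 CPM (7.41 to 9.54). Spheroids gave 1747, 285 and 809 UMIs in that order, or 154 CPM (147 to 162), 33.7 CPM (29.9 to 37.9) and 76.7 CPM (71.5 to 82.2). Every spheroid population was above every attached one, and the doxorubicin-resistant cells led among attached cells but not among spheroids.

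CSF1 varied least of the 4. It was at 1019 CPM in treatment-naïve attached cells (1005 to 1032), 2146 CPM in paclitaxel-resistant ones (2127 to 2165) and 1452 CPM in doxorubicin-resistant ones (1438 to 1465). Spheroids held 1226 CPM (1206 to 1247), 1397 CPM (1372 to 1423) and 1411 CPM (1388 to 1433), and the last 2 of these could not be separated by counting error. Treatment-naïve cells were the lowest in both cultures, whereas for IL1B and PTGS2 they were the highest.

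**Figure D1:**
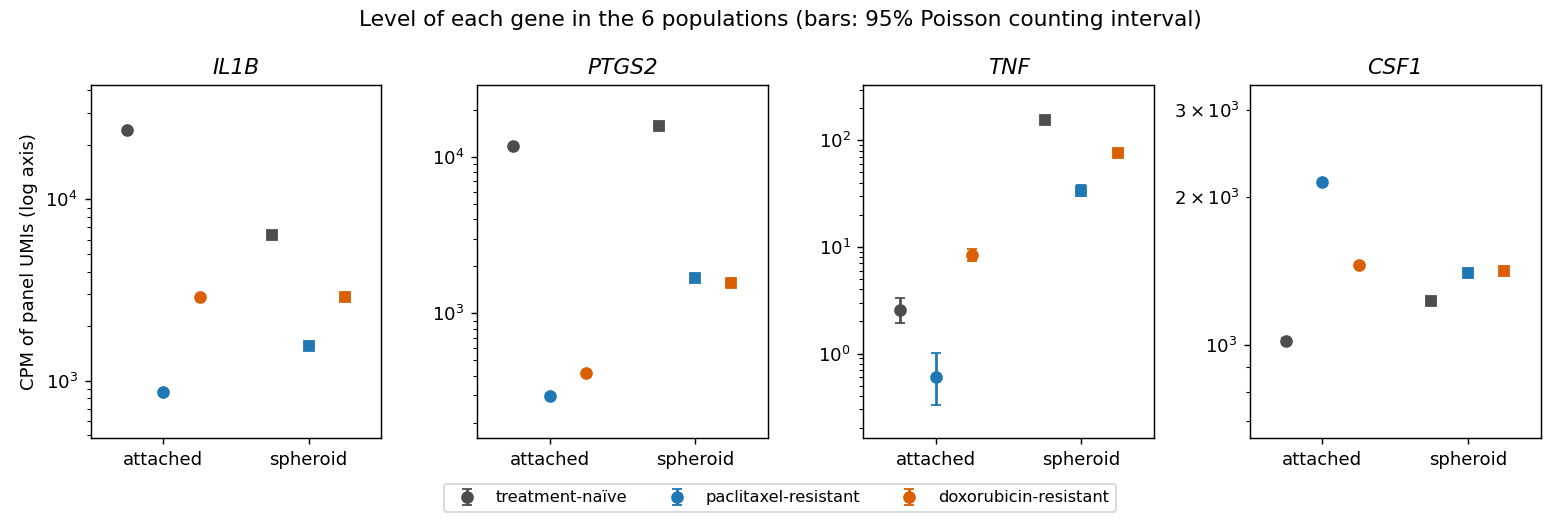
Level of each gene in CPM of all panel UMIs (log axis, separate scale per panel) in attached cells (circles) and spheroids (squares) of the 3 drug states, with 95% Poisson counting intervals that are often smaller than the symbol. IL1B and PTGS2 stand highest in the treatment-naïve cells, TNF ranges from 0.598 to 154 CPM, and CSF1 stays between 1019 and 2146 CPM.

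Paclitaxel-resistant attached cells had far less IL1B and PTGS2 transcript than treatment-naïve ones, less TNF and more CSF1. A gene was called at a 2-fold ratio of CPM or more if the population with the higher level had at least 50 UMIs, which 20.2% of 262 measured genes met on the higher side and 25.2% on the lower side. PTGS2 was 39.7-fold lower (38.8 to 40.7), IL1B 27.9-fold lower (27.5 to 28.3) and TNF 4.29-fold lower (2.35 to 8.36), and CSF1 was 2.11-fold higher (2.07 to 2.14). Only 7 measured genes were lower by more than PTGS2 and only 8 by more than IL1B, whereas 50 were higher by more than CSF1. The TNF value rests on 55 and 14 UMIs and is not called where 200 UMIs are required.

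Doxorubicin-resistant attached cells shared the deficit of PTGS2 and IL1B but not that of TNF. PTGS2 was 28.3-fold lower (27.7 to 28.8) and IL1B 8.27-fold lower (8.22 to 8.34), while TNF was 3.28-fold higher (2.44 to 4.48) and CSF1 1.42-fold higher (1.40 to 1.45), below the threshold. The background was 24.3% of 268 genes called higher and 22.8% called lower. TNF is carried by few cells, and leaving out the top 1% of cells by TNF removed every TNF-positive treatment-naïve cell. The ratio was then at least 10.4, against a floor of 3 UMIs, with too few UMIs left in the doxorubicin-resistant cells for a call.

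Among paclitaxel-resistant spheroids, 3 of the genes were lower than in treatment-naïve spheroids. PTGS2 was 9.35-fold lower (9.19 to 9.51), TNF 4.58-fold lower (4.04 to 5.21), IL1B 4.07-fold lower (3.99 to 4.14) and CSF1 1.14-fold higher (1.11 to 1.17), against 9.92% of 252 genes called higher and 20.2% called lower. Averaging CPM over cells, which gives shallow barcodes full weight, brought IL1B to 1.94-fold and TNF to 1.75-fold lower, ending both calls, and PTGS2 to 3.27-fold lower. CSF1 turned to a ratio of 0.852 without scaling.

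Doxorubicin-resistant spheroids were 10.1-fold lower in PTGS2 (9.92 to 10.2), 2.19-fold lower in IL1B (2.16 to 2.22), 2.01-fold lower in TNF (1.85 to 2.19) and 1.15-fold higher in CSF1 (1.12 to 1.18). Here 16.5% of 260 genes were called higher and 17.3% lower. The IL1B and TNF calls lie at the threshold. They became 1.60-fold and 1.10-fold lower by the mean over cells, and 1.98-fold and 1.81-fold lower when scaled without the most abundant genes. TNF became 1.35-fold lower without the top 1% of cells by TNF, and IL1B 1.97-fold lower without the top 1% of cells by UMIs. PTGS2 was called lower in all 4 comparisons under every alternative tried, with 4.80-fold by the mean over cells here. The comparisons within a culture share their treatment-naïve cells.

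Barcodes below 1000 UMIs, present almost only in spheroids, showed smaller differences in PTGS2 and IL1B. In them PTGS2 stood at 10685 CPM in treatment-naïve, 4244 CPM in paclitaxel-resistant and 3988 CPM in doxorubicin-resistant spheroids, and IL1B at 3641, 2374 and 2647 CPM. TNF was at 60.6 CPM on 31 UMIs, 76.95 CPM on 33 UMIs and 184 CPM on 69 UMIs, against 159, 31.4 and 72.8 CPM in the deeper barcodes, so that the order of the populations was different. What these shallow barcodes are was not tested, and they held 2.60% to 12.8% of the IL1B, PTGS2 or CSF1 UMIs of a spheroid population.

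**Figure D2:**
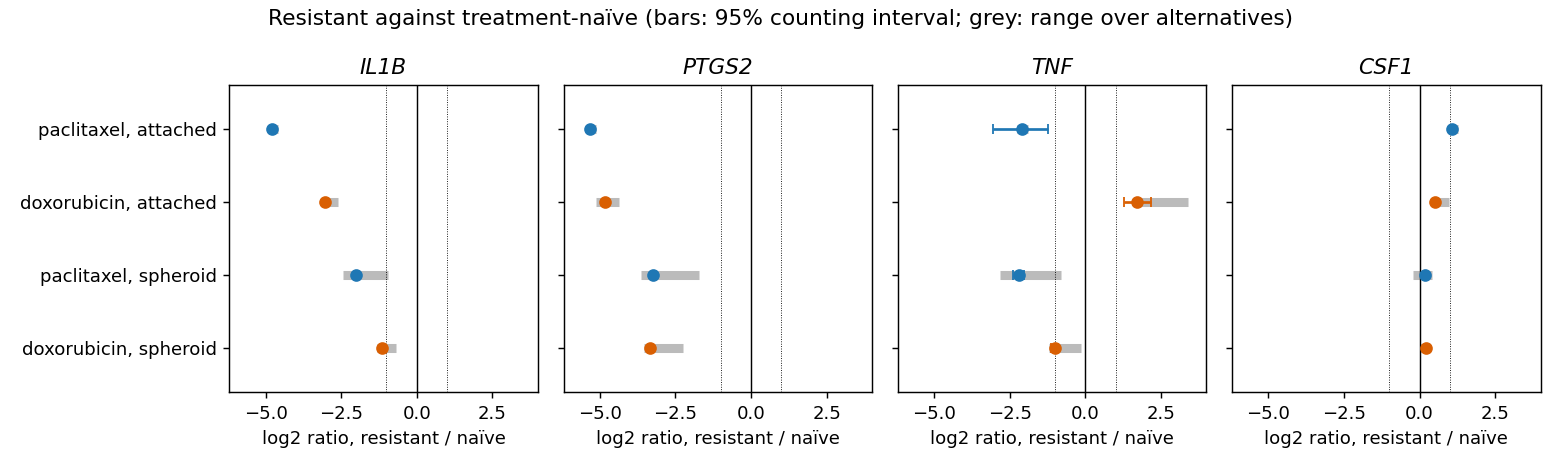
The log2 ratio of CPM in resistant over treatment-naïve cells for each gene in the 4 comparisons (points, with 95% counting intervals), with dotted lines at the 2-fold threshold and grey bars spanning the values under the alternative scalings, filters and cell selections (for TNF under doxorubicin in attached cells the right end, 10.4-fold, is a bound against a floor of 3 UMIs). PTGS2 lies beyond the threshold in all 4, TNF is to the right of 0 only in doxorubicin-resistant attached cells, and the grey bars are widest in the spheroids and for TNF.

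Set directly against each other in the attached culture, the doxorubicin-resistant cells had 3.37-fold more IL1B (3.32 to 3.42) and 14.1-fold more TNF (8.23 to 26.1) than the paclitaxel-resistant cells. PTGS2 was 1.41-fold higher (1.37 to 1.45) and CSF1 1.48-fold lower (1.46 to 1.498), both under the threshold, with 13.8% of 261 genes called higher and 9.96% lower. In spheroids TNF was 2.28-fold higher (1.99 to 2.61), IL1B 1.86-fold higher (1.82 to 1.89), PTGS2 1.08-fold lower (1.05 to 1.10) and CSF1 at a ratio of 1.01 (0.985 to 1.03), with 12.7% of 251 genes called higher and 4.78% lower. The spheroid TNF call ended at 1.97-fold with size factors and 1.59-fold by the mean over cells. IL1B would be called at 2.31-fold without scaling.

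Among the 4 genes, TNF differed most between spheroids and attached cells. It was 60.2-fold higher (46.0 to 80.2) in treatment-naïve cells, 56.4-fold higher (33.0 to 104) in paclitaxel-resistant cells and 9.11-fold higher (7.89 to 10.5) in doxorubicin-resistant cells. Genes called higher were 18.2%, 14.5% and 17.9% of those measured in these comparisons and genes called lower 24.2%, 24.3% and 15.7%. Only 5, 2 and 15 measured genes were higher by more than TNF. PTGS2 was higher by 1.34-fold (1.33 to 1.34), 5.68-fold (5.51 to 5.84) and 3.75-fold (3.66 to 3.83), the first not called.

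IL1B differed by drug state, being 3.79-fold lower in spheroids of treatment-naïve cells (3.76 to 3.82), 1.81-fold higher in those of paclitaxel-resistant cells (1.77 to 1.85) and at a ratio of 0.996 in those of doxorubicin-resistant cells. The gap between naïve and resistant IL1B levels was thus narrower in spheroids, with the naïve level lower. CSF1 was 1.20-fold higher (1.18 to 1.23), 1.54-fold lower (1.505 to 1.57) and 1.03-fold lower (1.01 to 1.05) in the same order. Without scaling all these ratios drop by 1.89 to 2.79 times with the smaller spheroid totals. IL1B in paclitaxel-resistant cells then turned to 1.53-fold lower, CSF1 in treatment-naïve cells to 1.57-fold lower and PTGS2 in treatment-naïve cells to 1.42-fold lower. PTGS2 in doxorubicin-resistant cells lost its call at 1.34-fold, and TNF stayed 31.8-fold, 20.4-fold and 3.26-fold higher. Other settings moved values the other way. IL1B in paclitaxel-resistant cells was called 2.06-fold higher when scaled without the most abundant genes, 2.47-fold higher with size factors and 2.53-fold higher by the mean over cells. By that mean PTGS2 was 12.2-fold and TNF 115-fold higher in paclitaxel-resistant cells, and PTGS2 6.45-fold higher in doxorubicin-resistant ones.

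Cell by cell, IL1B was nearly universal in treatment-naïve attached cells. At least 1 UMI was seen in 99.1% of them (98.8 to 99.4, exact binomial), 76.8% of paclitaxel-resistant and 84.6% of doxorubicin-resistant attached cells, and in 59.7%, 46.5% and 59.0% of spheroid cells. To remove the effect of depth, cells with at least 1000 UMIs were thinned to 1000 UMIs each, which left 5305, 5895 and 7032 attached and 2442, 2164 and 2558 spheroid cells. The shares with IL1B were then 97.2%, 45.5% and 61.3% in attached cells and 61.2%, 36.7% and 51.3% in spheroid cells. The median thinned cell held 14, 0 and 1 IL1B UMIs attached and 1, 0 and 1 in spheroids.

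In attached cultures the lower IL1B level of the resistant cells extended to most cells. Only 15 paclitaxel-resistant attached cells (0.254%, 0.142 to 0.419) and 268 doxorubicin-resistant ones (3.81%, 3.38 to 4.29) reached the treatment-naïve median of 14 thinned UMIs. These cells carried ABCB1, the drug efflux pump gene that is high in the resistant cells, at a mean of 4.73 and 6.60 thinned UMIs, against 4.67 and 7.73 in the other cells of their populations and 0.157 in treatment-naïve cells at or above that median. ABCB1 was detected in 60.0% and 69.4% of them, against 80.9% and 75.8% of the others. In treatment-naïve cells at or above that median the share was 13.1%. In spheroids the treatment-naïve median of 1 UMI was reached by 36.7% of paclitaxel-resistant and 51.3% of doxorubicin-resistant cells, against 61.2% of treatment-naïve ones. IL1B was more concentrated in treatment-naïve spheroids than in treatment-naïve attached cells, with 80.6% against 42.1% of its UMIs in the top 10% of cells. After thinning these shares were 58.7% and 36.1%, at unlike mean levels of 4.49 and 22.3 IL1B UMIs. Paclitaxel- and doxorubicin-resistant spheroids were alike in this, with 79.0% and 73.2% before and 69.9% and 62.0% after thinning.

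PTGS2 had at least 1 UMI in 95.1%, 48.7% and 49.5% of attached and 79.6%, 61.5% and 59.9% of spheroid cells, in the order treatment-naïve, paclitaxel-resistant and doxorubicin-resistant. Thinned shares were 85.4%, 21.0% and 21.5% in attached and 86.2%, 47.7% and 41.4% in spheroid cells. At equal depth the treatment-naïve spheroid and attached cells were within 1 percentage point of each other. The treatment-naïve median of 6 thinned UMIs was reached by 0.339% of paclitaxel-resistant and 1.21% of doxorubicin-resistant attached cells, and the spheroid median of 8 by 4.34% and 4.61%.

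TNF was found in few cells everywhere, in 34, 12 and 114 attached cells (0.641%, 0.204% and 1.62%) and in 328, 105 and 283 spheroid cells (7.52%, 2.80% and 7.49%). Thinned shares were 0.226%, 0.0679% and 0.540% in attached cells and 5.94%, 1.52% and 4.57% in spheroids. A single UMI was held by 79.4%, 91.7% and 71.1% of attached TNF-positive cells and by 46.0%, 64.8% and 49.5% of spheroid ones.

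A handful of cells carried much of the TNF signal. The 5 highest cells held 24 of 55 TNF UMIs in treatment-naïve attached cells and 86 of 248 in doxorubicin-resistant ones, where a single cell had 31. In treatment-naïve spheroids they held 443 of 1747, with 133 in a single cell, in paclitaxel-resistant spheroids 86 of 285 and in doxorubicin-resistant spheroids 98 of 809.

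CSF1 was broadly expressed. It had at least 1 UMI in 84.8%, 96.5% and 90.9% of attached and 52.9%, 59.0% and 64.7% of spheroid cells, and after thinning in 53.1%, 78.6% and 64.8% of attached and 56.0%, 64.5% and 62.5% of spheroid cells. Its variance over thinned cells was 1.85 to 2.26 times its mean, compared with 3.38 to 27.2 times for IL1B. The 27.2 is from treatment-naïve attached cells, where thinned IL1B averaged 22.3 UMIs and CSF1 1.01, so these ratios are not at like levels. The top 10% of thinned cells held 31.2% to 43.0% of CSF1 UMIs, with the lowest share in paclitaxel-resistant attached cells. For IL1B that share was 36.1% in treatment-naïve attached cells, where CSF1 had 43.0%, and 50.8% to 69.9% in the other populations.

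**Figure D3:**
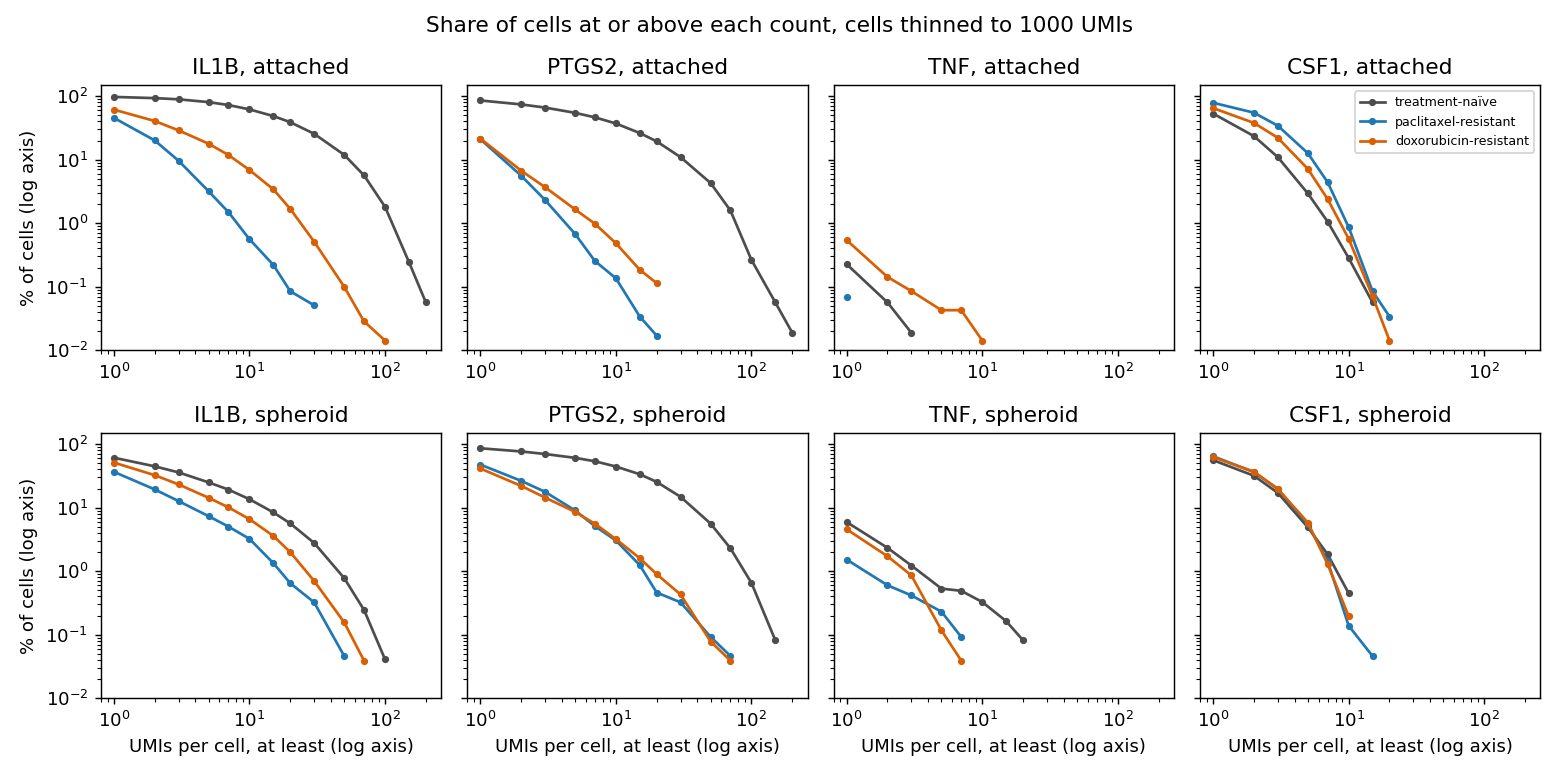
Share of cells (log axis) holding at least the number of UMIs on the horizontal axis (log axis) after thinning each cell to 1000 UMIs, for the 3 drug states in attached cells (top) and spheroids (bottom); points where no cell remains are not drawn. The IL1B and PTGS2 curves of resistant cells lie below the treatment-naïve curve along their whole length, the CSF1 curves start at 56.0% to 64.5% of cells in spheroids, and TNF starts at 0.540% or less in attached cells.

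SUM159 is a single line, so no cell type that should lack these genes was present to measure free RNA. A ceiling can be given instead, under the assumption of equal carry-over for all transcripts and barcodes, which was not tested. If every UMI of the transcript that a resistant population retained least, among those with at least 1000 UMIs in treatment-naïve cells, were carried over from treatment-naïve cells, the same carry-over would supply at most 20.3% of IL1B and 28.98% of PTGS2 UMIs in paclitaxel-resistant attached cells. In doxorubicin-resistant attached cells it would supply at most 3.13% and 10.7%, and in spheroids at most 4.90% and 11.3% under paclitaxel and 4.29% and 19.7% under doxorubicin. The transcripts that set this ceiling were IGFBP3, ALDH1A1, KRT14 and IGFBP3 again.

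IL1B and PTGS2 were weakly co-expressed, most in treatment-naïve spheroids. Over thinned cells, which share a library, their Spearman correlation was 0.16, 0.08 and 0.11 in attached and 0.32, 0.16 and 0.20 in spheroid cells. In treatment-naïve spheroids PTGS2 averaged 17.3 UMIs in cells with IL1B and 9.94 in cells without, and was detected in 90.4% and 79.4% of them. Going from 0 to 1 or 2, 3 to 9, 10 to 29 and 30 or more thinned IL1B UMIs, mean PTGS2 there was 9.94, 12.4, 17.5, 23.2 and 37.2 UMIs. In treatment-naïve attached cells it was 8.79, 9.38, 9.27, 11.8 and 15.3 UMIs.

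Depth before thinning moved with these bins, from a median of 2992 UMIs in IL1B-negative treatment-naïve spheroid cells to 7560.5 in the highest bin. When these cells were split by depth into 3 equal parts, the correlation from the shallowest to the deepest was 0.19, 0.25 and 0.40. The mean thinned IL1B was 1.97, 3.44 and 8.07 UMIs in these parts and the mean PTGS2 11.8, 14.1 and 17.4 UMIs. The part of cell size or RNA content in this relation was not tested.

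**Figure D4:**
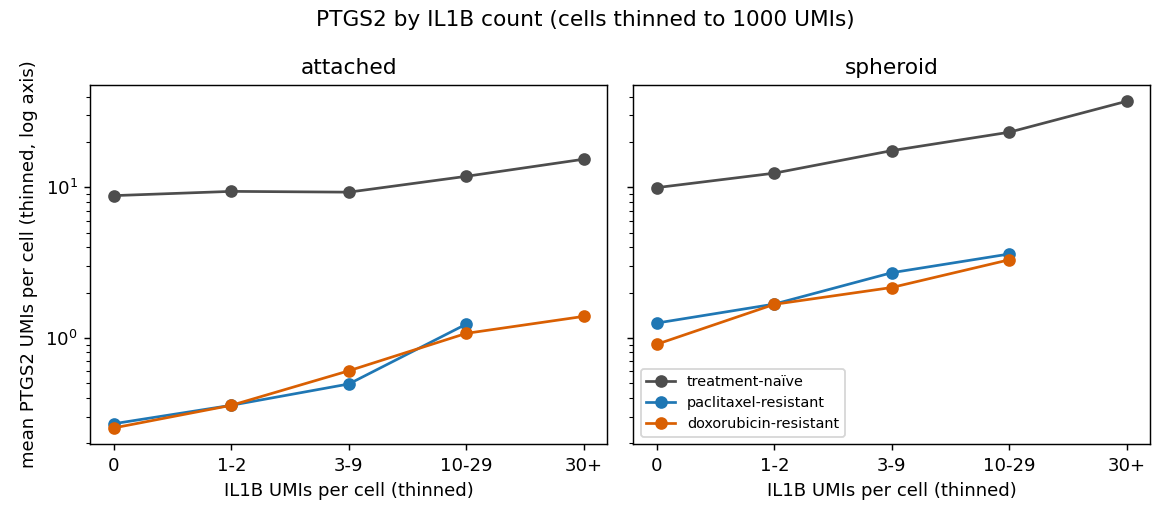
Mean thinned PTGS2 UMIs per cell (log axis) against the thinned IL1B count of the cell, for bins of at least 20 cells in the 3 drug states of attached cells (left) and spheroids (right). Lines mostly climb from left to right, from 9.94 to 37.2 in treatment-naïve spheroids, but resistant cells with 10 or more IL1B UMIs still hold less PTGS2 than treatment-naïve cells with none.

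Resistant cells with high IL1B did not reach naïve PTGS2 levels. At 10 to 29 thinned IL1B UMIs, mean PTGS2 was 1.23 in 30 paclitaxel-resistant attached cells and 1.07 in 447 doxorubicin-resistant ones, below the 8.79 of 151 treatment-naïve attached cells without IL1B. In spheroids the corresponding means were 3.603 in 63 paclitaxel-resistant and 3.30 in 151 doxorubicin-resistant cells. The deficit of PTGS2 was thus also present at matched IL1B counts.

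TNF went with PTGS2 more than with IL1B in treatment-naïve spheroids, with Spearman correlations of 0.16 and 0.07. TNF was detected in 6.61% of cells with PTGS2 and 1.78% of cells without. The 145 thinned cells with TNF there averaged 27.1 PTGS2, 6.60 IL1B and 113 CXCL8 UMIs, against 13.6, 4.36 and 67.3 in the others, CXCL8 being the neutrophil chemokine interleukin-8. In doxorubicin-resistant spheroids the 117 cells with TNF averaged 4.94 IL1B and 7.95 IL6 UMIs, against 2.27 and 3.70.

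The 38 doxorubicin-resistant attached cells with TNF averaged 5.24 IL1B and 24.1 IL6 UMIs, against 2.70 and 13.7 in the others, IL6 being the acute-phase cytokine interleukin-6. IL1B was nevertheless detected in 60.5% of these TNF-positive cells and 61.3% of the others, and its Spearman correlation with TNF was 0.01. In treatment-naïve attached cells the order was reversed, with a mean of 12.9 IL1B UMIs in the 12 cells with TNF and 22.4 in the others. Summed myeloid markers averaged 0.345 UMIs in TNF-positive against 0.361 in other cells of treatment-naïve spheroids, and 0.308 against 0.347 in doxorubicin-resistant spheroids. In attached cells they averaged 0.333 against 0.743 for the 12 TNF-positive treatment-naïve cells, and 0.0789 against 0.131 under doxorubicin resistance. They were higher at 0.121 against 0.0981 in the 33 TNF-positive cells of paclitaxel-resistant spheroids, and 0.25 against 0.188 in the 4 of paclitaxel-resistant attached cells. Cells with the macrophage chemokine CCL4 held 26 of the 248 TNF UMIs of doxorubicin-resistant attached cells, in 3 of 114 TNF-positive cells. In each other population CCL4-positive cells held 0.973% of TNF UMIs or less. CSF1 had Spearman correlations with the other 3 genes that ranged from -0.10 with IL1B in doxorubicin-resistant attached cells to 0.18 with PTGS2 in treatment-naïve spheroids.

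Over all genes detected in at least 5% of thinned cells, CXCL8 was the gene most correlated with IL1B in 5 of the 6 populations. Its Spearman correlation was 0.45, 0.11 and 0.23 in attached and 0.48, 0.36 and 0.37 in spheroid cells. The exception was doxorubicin-resistant attached cells, where the EGFR ligand gene AREG (0.27) and the aldo-keto reductase gene AKR1C1 (0.26) led. PTGS2 was nearest to CXCL8 (0.44), the growth regulator MYC (0.42) and JUN (0.35), a subunit of AP-1, in treatment-naïve spheroids. The genes most correlated with CSF1 included the collagen gene COL3A1 (0.17) in treatment-naïve and the complement protease gene C1S (0.26) in doxorubicin-resistant attached cells. In spheroids its nearest genes included the caveolar gene CAV1 (0.28) in treatment-naïve cells and the matrix protease gene MMP2 (0.24) in paclitaxel-resistant cells.

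Over the 6 population levels, 276 genes were compared on log2(CPM + 1) by Pearson correlation. The closest to IL1B were CCR7 (0.96), SLC39A6 (0.95), ITGAE (0.94), CD86 (0.94) and GRB7 (0.93), and PTGS2 was at 0.81. The closest to PTGS2 were CXCL12 (0.98), KRT17 (0.97), BMP1 (0.94), ALDH1A1 (0.92) and LAMP1 (0.91). TNF was nearest to TGFB1 (0.96), TRAC (0.95), LAG3 (0.95), HRAS (0.94) and SCUBE2 (0.93), and genes close to CSF1 included THBS1 (0.92), PDGFB (0.89), KRT8 (0.87) and PTPRC (0.85). Several of these genes were scarce, such as CCR7 at 0.769 to 4.90 CPM, CD86 at 0 to 7.47 CPM and GRB7 at 0.473 to 2.80 CPM. Near TNF, TRAC fell to 0.299 CPM and LAG3 to 1.31 CPM. With 6 points and many genes these are a description.

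Among other genes of inflammatory signalling, those called lower outnumbered those called higher in all 4 comparisons of resistant with treatment-naïve cells. Of 57 such genes listed, 18 were in the files. In paclitaxel-resistant cells, 1 was higher and 7 lower of 14 measured attached (median log2 ratio -1.28, against -0.02 over all genes) and 0 higher and 8 lower of 13 in spheroids (-1.67 against 0.00), where 20.2% and 9.92% of all genes were called higher and 25.2% and 20.2% lower. In doxorubicin-resistant cells, 5 were higher and 6 lower of 15 attached (-0.65 against 0.13) and 4 higher and 7 lower of 16 in spheroids (-0.20 against 0.20), where 24.3% and 16.5% of all genes were called higher and 22.8% and 17.3% lower.

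CXCL12, the ligand of CXCR4, was lower by 62.4-fold and 59.6-fold in attached and 35.4-fold and 43.1-fold in spheroid paclitaxel- and doxorubicin-resistant cells. The calprotectin subunit gene S100A9 was 41.4-fold and 77.3-fold lower in attached cells but 5.46-fold and 2.73-fold lower in spheroids. Its partner S100A8 was 5.35-fold and 23.7-fold lower in attached cells and 3.19-fold and 3.63-fold lower in spheroids. CCL3, a macrophage chemokine, was 19.98-fold and 29.1-fold lower in paclitaxel-resistant attached and spheroid cells but 1.57-fold and 1.20-fold lower, not called, in the doxorubicin-resistant ones. The prostaglandin D synthase gene PTGDS, downstream of PTGS2, was 20.5-fold lower on 7 UMIs in doxorubicin-resistant spheroids and 9.59-fold lower on 12 UMIs in paclitaxel-resistant ones. In attached cells it was 3.53-fold lower on 17 UMIs under paclitaxel resistance and 8.40-fold lower on 9 UMIs under doxorubicin resistance. IL17F was at least 18.7-fold lower in paclitaxel-resistant spheroids (0 against 75 UMIs, with 3 UMIs taken as the floor) and 17.5-fold lower in doxorubicin-resistant ones.

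On the higher side in doxorubicin-resistant cells stood the chemokine genes CXCL14 (66.1-fold attached, 46.6-fold in spheroids) and CCL4 (31.3-fold and 17.0-fold). The interleukin-1 receptor antagonist gene IL1RN was also higher there (3.44-fold attached, 3.55-fold in spheroids). IL6 was 5.25-fold higher in attached doxorubicin-resistant cells, a population in which IL1B was 8.27-fold lower. In spheroids IL6 was 2.24-fold lower in paclitaxel-resistant cells and 1.27-fold higher, not called, in doxorubicin-resistant ones. Paclitaxel-resistant attached cells had 3.87-fold more CXCL14, while JUN at 1.97-fold and IL6 at 1.46-fold were higher without a call. In paclitaxel-resistant spheroids no gene of the list was called higher, IL18 being at 1.27-fold higher and the TNF receptor gene TNFRSF1A at 1.16-fold lower.

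CXCL8, the gene that went with IL1B over cells, was lower by 4.45-fold and 3.07-fold in attached and by 1.75-fold, not called, and 2.78-fold in spheroid paclitaxel- and doxorubicin-resistant cells. CD14, the myeloid marker that made up most of that marker sum, stood at 700.3, 167 and 122 CPM in attached and 373, 87.7 and 310 CPM in spheroid cells. It was thus highest in the treatment-naïve cells of either culture, like IL1B, and its part in the IL1B differences was not tested.

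**Figure D5:**
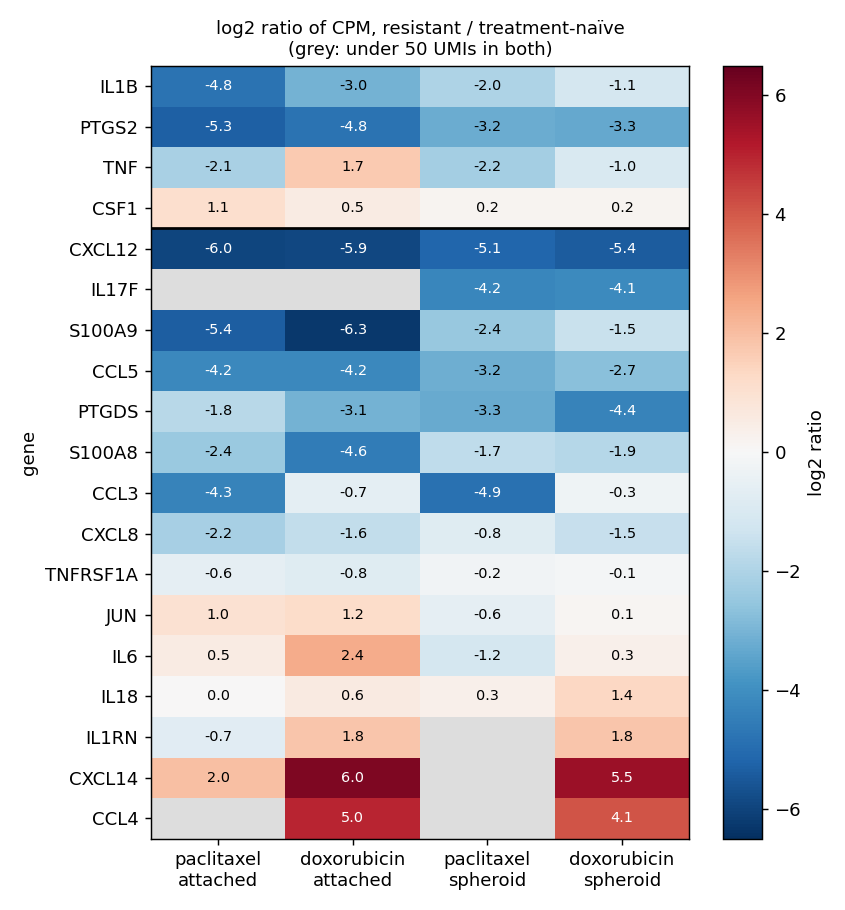
The log2 ratio of CPM in resistant over treatment-naïve cells for the 4 genes (above the line) and the measured genes of the inflammatory list that are reported here (below), in blue where lower and red where higher, with grey where neither population had 50 UMIs and IL17F under paclitaxel plotted at its bound. The rows for PTGS2, CXCL12 and CCL5 are blue throughout, and CXCL14 and CCL4 are red where measured.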

How the data were processed

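Cells of 2 GEO samples had been assigned by the authors to 6 populations, and the authors deposited 1 matrix of counts (RSEC-adjusted UMIs per panel gene and putative cell) for each. Reads had been processed on a cloud platform, and the submitters' processing notes name hg38. The filters on cells before deposit and the handling of cells with several tags are not given in the sources used here. All deposited barcodes were used, which in the attached culture outnumber the cells said to have been pooled, and no doublet caller was run. An unlisted gene was counted as 0 in that population.

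UMIs were summed per population and divided by its total (8452574 to 29451390) to give CPM. Intervals at 95% are exact Poisson for CPM, exact conditional binomial for ratios and Clopper-Pearson for shares. They cover counting error only, and those for CPM and ratios treat UMIs as independent. With 1 sample per group, no statistical test was made. A gene was measured with 50 UMIs in either population and called at 2-fold, the size that the study's methods use. Levels were compared within a gene only, since amplicons differ. Thinning to 1000 UMIs used hypergeometric draws with a fixed seed. The scripts were tested on simulated data. Python 3.11.15, numpy 2.4.6, scipy 1.17.1 and pandas 2.3.3 were used.

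Named genes were the 4 members, the 3 highest and 3 lowest measured genes of the inflammatory list per resistant comparison, and the 5 genes most like each member over populations and over cells, of which the leading ones are printed. A few such genes are left out of the text but count in the totals. CXCL8, CD14, IL6, CCL4 and JUN values beside other results were chosen after their values were seen. The members and lists were chosen with earlier results of these data known. Alternatives were other scalings, minimum counts, thinning depths and cell selections. Those leaving out the top 1% of cells, selecting cells on ABCB1 and splitting cells by depth were added after the data had been seen.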

Additional observations from a re-analysis of the deposited data

Results flagged for a closer look

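TNF differed between cultures in its direction under doxorubicin. It was 3.28-fold higher than in treatment-naïve cells when attached and 2.01-fold lower in spheroids, with each population a single sample, so the difference between the cultures was not tested. PTGS2 in doxorubicin- against paclitaxel-resistant cells was 1.41-fold higher attached and 1.08-fold lower in spheroids, both under 2-fold.

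Between spheroids and attached cells, IL1B was 3.79-fold lower in the treatment-naïve state and 1.81-fold higher in the paclitaxel-resistant state. CSF1 was 1.20-fold higher in the treatment-naïve state, 1.54-fold lower in the paclitaxel-resistant state and 1.03-fold lower in the doxorubicin-resistant state. Each was marked because single samples moved in opposite directions, and no test of the difference was possible. The direction of the smaller of these differences depends on the scaling, since the smaller spheroid totals lower every unscaled ratio.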

How the results depend on the processing

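Of 283 recomputed ratios over 36 gene comparisons, 263 kept their call, 20 changed it and no called ratio turned direction. Over the 16 ratios of resistant to treatment-naïve cells, which repeat the 4 genes and share treatment-naïve cells, calls of lower numbered 11. They became 7 by the mean over cells of CPM. Calls of higher numbered 2 and became 1 without the top 1% of cells by the gene itself. Of all genes, 17.3% to 25.2% were called lower and 9.92% to 24.3% higher in these comparisons. For spheroids against attached cells, calls of lower numbered 1 and became 4 without scaling, beside 15.7% to 24.3% of all genes with scaling. Pairs of the 4 genes with a Spearman correlation of at least 0.1 numbered 8 of 36 and became 13 when cells were thinned to 2000 UMIs. List genes called higher in paclitaxel-resistant attached cells numbered 1 and became 2, both without scaling and when scaled without the most abundant genes. Restricting cells by ABCB1 changed no count of called genes. Leaving scaling out moved the median log2 ratio of all genes by -1.48 to -0.92 between cultures. TNF is limited by depth, with as few as 14 UMIs. No paired analysis was possible because each population is a single sample.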
